A study of Mus musculus with 4 samples.

Results

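The genes described here encode the cytoplasmic intermediate filament proteins of glia, neural stem cells and neurons: Vim (vimentin), Gfap (glial fibrillary acidic protein), Nes (nestin), Synm (synemin), Nefl and Nefm (the light and medium neurofilament proteins) and Ina (internexin alpha). They were taken by symbol from a list of names, with no threshold on measured values, and all 7 were found among the 23334 genes of the deposited tables. Cells were sorted from the hippocampus of Vegfr3::YFP reporter mice on a C57BL/6 background, in which the yellow fluorescent protein YFP reports Vegfr3, the receptor of VEGF-C. There were 4 groups with 1 RNA sequencing library each: Vegfr3 YFP positive cells cultured for 18 h with 50 ng/ml VEGF-C, Vegfr3 YFP positive cells cultured for 18 h without it, Vegfr3 YFP negative cells with VEGF-C at the same dose, and Vegfr3 YFP negative cells without it. The labels name the positive cells SGZ-originated neural stem cells (SGZ is the subgranular zone, where the dentate gyrus forms new neurons) and the negative cells SGZ-originated neurons. Every library pools cells from 2 groups of 16 mice, whose age the labels do not give, and all 4 populations carried the same reporter and were sorted and cultured before RNA extraction. Cells that received VEGF-C are called treated and the others untreated.

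Intermediate filaments are the rope-like part of the cytoskeleton, beside actin filaments and microtubules, and each cell type builds them from its own set of proteins. Vimentin forms filaments by itself in many cell types, GFAP is the filament protein of astrocytes and of radial glia-like stem cells, and nestin and synemin enter filaments only together with a partner such as vimentin. Neurofilament light protein and internexin alpha form the core of axonal filaments, which the medium protein joins. In the adult dentate gyrus, GFAP and nestin are widely used as markers of the stem cells.

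Each group has 1 library, so every difference below is between single libraries, has no replicate check and carries no p-value. Levels are FPKM, fragments scaled by transcript length and library size, which allow levels of different genes to be compared. Normalized counts came, nearly always, in whole steps of 1 size per library, and a value is given its number of implied fragments by counting its steps. Intervals in parentheses are 95% exact Poisson intervals (levels) or exact binomial intervals (folds) from those fragments and cover counting error only. The treated and untreated YFP-positive libraries held 60326308 and 8561944 such fragments, and the treated and untreated YFP-negative ones 8390507 and 16275369. They also differed in how many genes they showed: 13528 and 9669 genes were above 0 in treated and untreated YFP-positive cells, and 9556 and 13132 in treated and untreated YFP-negative cells. The untreated YFP-positive library and the treated YFP-negative library are called the gene-poor libraries below. Each comparison that changes only 1 label sets a gene-poor library against a gene-rich one, so that difference cannot be told apart from the labels. The pairs matched in gene number differ in both labels. The gene-rich pair is treated YFP-positive against untreated YFP-negative cells, and the gene-poor pair is untreated YFP-positive against treated YFP-negative cells. Their differences cannot be assigned to reporter status or to VEGF-C alone, and the gene-rich pair also differs in depth. Flt4, the gene of Vegfr3, was at 2.01 FPKM in treated YFP-positive cells and listed at 0 in untreated ones, against 0.348 and 0.0584 FPKM in treated and untreated YFP-negative cells.

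The marker genes of 11 cell types were set against the labels. The 12 astrocyte markers summed to 1168 and 1282 FPKM in treated and untreated YFP-positive cells, against 63.1 and 58.3 FPKM in treated and untreated YFP-negative cells. In the same order of libraries, 12 neural stem cell markers summed to 593, 817, 220 and 136 FPKM, 10 progenitor markers to 240, 408, 51.6 and 51.6 FPKM, and 15 neuron markers to 536, 475, 106 and 148 FPKM. Single neuron markers were mixed: 5 of 12 measured were higher and 4 lower between the untreated populations (YFP-positive over YFP-negative), and 7 of 12 were higher and 1 lower between the treated ones. Tubb3, Neurod1 and Stmn2 carried most of the YFP-positive sums, while Snap25, a protein of synaptic vesicle release, was at 20.4 and 6.28 FPKM in treated and untreated YFP-positive cells against 39.9 and 21.1 FPKM in treated and untreated YFP-negative cells. The 10 oligodendrocyte markers summed to 471 and 357 FPKM in YFP-positive cells and to 9059 and 7512 FPKM in YFP-negative cells, and the 12 microglia markers to 14.9 and 82.2 FPKM against 1750 and 443 FPKM. Oligodendrocyte precursor markers (8 genes) summed to 38.8, 383, 560 and 171 FPKM over the 4 libraries in that order. The remaining sums were 10.2, 16.3, 37.2 and 14.6 FPKM for 12 endothelial genes, 2.05, 23.0, 2.12 and 25.3 FPKM for 11 mural genes, 0.321, 0.0960, 1.11 and 0.164 FPKM for 8 fibroblast genes, and 7.68, 1.36, 200 and 44.8 FPKM for 9 ependyma and choroid plexus genes. In both YFP-negative libraries, which are labelled neurons, the oligodendrocyte sum was the highest of the 11 and the neuron sum was far below it, so the populations are called by their reporter status here. In pooled cells, fewer cells of a type and less RNA per cell cannot be told apart.

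**Figure D1:**
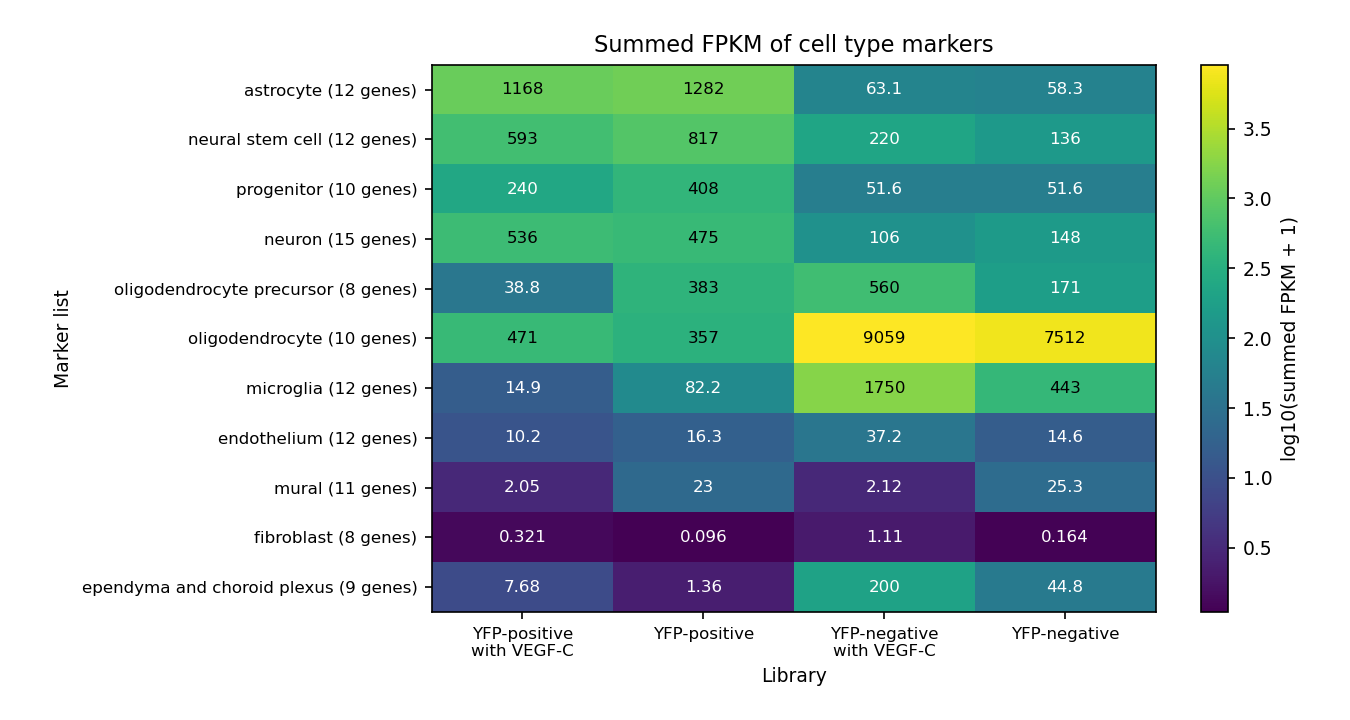
Summed FPKM of the marker genes of 11 cell types (rows) in the 4 libraries (columns); colour shows log10 of the sum plus 1 and the printed number is the sum. Astrocyte markers sum to 1168 and 1282 FPKM in the YFP-positive libraries and oligodendrocyte markers to 9059 and 7512 FPKM in the YFP-negative libraries.

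The 3 members with the highest mean FPKM over all libraries, Vim, Gfap and Nes, differ in the sequence just upstream of their start sites. In both YFP-negative libraries, however, Nefm was above Gfap. The 250 bases before the RefSeq start (GRCm38.p6) are shown for these 3 because of their mean level and because they did not follow each other across libraries. Capitals mark matches on either strand to the TATA box (TATAAA), the CCAAT box (CCAAT) or the GC box (GGGCGG). The Vim stretch is chr2:13574061-13574310 on the plus strand, the Gfap stretch chr11:102897201-102897450 on the minus strand, and the Nes stretch chr3:87970843-87971092 on the plus strand.

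Vim: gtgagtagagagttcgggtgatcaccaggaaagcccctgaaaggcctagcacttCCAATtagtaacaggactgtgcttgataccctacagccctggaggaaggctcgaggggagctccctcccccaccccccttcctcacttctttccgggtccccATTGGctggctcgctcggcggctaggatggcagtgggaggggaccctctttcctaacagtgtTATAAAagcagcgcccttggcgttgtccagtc

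Gfap: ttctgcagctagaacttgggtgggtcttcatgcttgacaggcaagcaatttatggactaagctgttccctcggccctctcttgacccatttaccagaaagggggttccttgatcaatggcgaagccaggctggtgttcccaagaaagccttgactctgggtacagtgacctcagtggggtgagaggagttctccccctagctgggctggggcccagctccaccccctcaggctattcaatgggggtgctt

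Nes: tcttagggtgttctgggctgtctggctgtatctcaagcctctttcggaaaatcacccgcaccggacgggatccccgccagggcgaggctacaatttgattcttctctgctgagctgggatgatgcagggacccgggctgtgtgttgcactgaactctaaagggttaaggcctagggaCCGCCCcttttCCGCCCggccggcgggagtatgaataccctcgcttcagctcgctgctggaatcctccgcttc

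The Vim stretch held 1 TATA box, which begins 32 bases before the start, and 2 CCAAT boxes; the Nes stretch held 2 GC boxes; the Gfap stretch held none of these motifs. Among 32851 stretches of the same length in the RefSeq table, 12.4% held TATAAA, 33.8% held CCAAT and 32.7% held GGGCGG. The STAT site TTCNNNGAA (7.02% of all stretches) and the AP-1 site TGANTCA (6.75%) were also searched on both strands and were in none of the 3. These are matches of letters in this window and say nothing about binding. Entries were found for 5 of the 7 members. The RefSeq start need not be the outermost one: the Gfap stretch and the Vim stretch lie within the bounds that GENCODE M21 gives for these genes.

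Vim, on chromosome 2 from 13573927 to 13582826 (mm10, plus strand), was the most abundant filament gene in all 4 libraries. It stood at 1215 FPKM in treated YFP-positive cells (1208 to 1221) and 2333 FPKM in the untreated ones (2306 to 2361). In YFP-negative cells it stood at 691 FPKM after treatment (677 to 706) and 184 FPKM in the untreated ones (179 to 188). Both YFP-positive libraries lay above both YFP-negative ones, and Vim ranked 68 and 52 among all genes in treated and untreated YFP-positive cells, against 183 and 443 in treated and untreated YFP-negative cells. Without VEGF-C the level was 12.7-fold higher in the YFP-positive library (12.4 to 13.0), and with VEGF-C 1.76-fold higher (1.72 to 1.80). The pairs that match in gene number differ in both reporter status and VEGF-C. In them, it was 6.61-fold higher between the gene-rich libraries (6.45 to 6.78) and 3.38-fold higher between the gene-poor ones (3.30 to 3.46). The size of the difference thus ran from 1.76 to 12.7-fold depending on which libraries were set against each other. That YFP-positive cells were higher each time follows from both of their libraries lying above both YFP-negative ones.

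Gfap, on chromosome 11 from 102887336 to 102900912 (minus strand), was higher in both YFP-positive libraries, the lowest of which lay 7.67-fold above the highest YFP-negative one. It was at 66.3 FPKM in treated YFP-positive cells (65.1 to 67.4) and 35.6 FPKM in the untreated ones (32.9 to 38.5). In YFP-negative cells it was at 0.0515 FPKM after treatment, from 1 fragment (0.00130 to 0.287), and at 4.64 FPKM in the untreated ones (4.08 to 5.26). The populations did not overlap. Without VEGF-C it was 7.67-fold higher in YFP-positive cells (6.62 to 8.91). With VEGF-C the fold of 1286 rests on that single fragment and has an interval from 231 to 50807. Between the gene-rich libraries it was 14.3-fold higher (12.6 to 16.2). Between the gene-poor ones it was 691-fold higher, from 644 fragments against 1 (124 to 27349). Most astrocyte markers differed between the populations as Gfap did. Without VEGF-C, 10 of 11 measured ones were at least 2-fold higher in YFP-positive cells, and with it 11 of 12 were. The exception in both was S100b, with log2 ratios (YFP-positive over YFP-negative) of -0.38 without VEGF-C and -1.18 with it. Aqp4, Aldh1l1, Gjb6, Ntsr2 and Acsbg1 were listed at 0 or stayed below 0.1 FPKM in the YFP-negative libraries. Gjb6 was also listed at 0 in untreated YFP-positive cells, so it differed between the populations only with VEGF-C. What part the astrocyte markers have in the Gfap difference was not tested.

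Nes, on chromosome 3 from 87971078 to 87980451 (plus strand), went the other way. It was at 43.2 FPKM in treated YFP-positive cells (42.6 to 43.9) and 39.0 FPKM in the untreated ones (37.2 to 41.0), against 78.0 FPKM (75.5 to 80.6) and 82.3 FPKM (80.7 to 83.9) in treated and untreated YFP-negative cells. Both YFP-positive libraries lay below both YFP-negative ones. As deposited, treated and untreated libraries of a population differed little, but under upper-quartile scaling the log2 ratio of treated over untreated cells was 1.36 in YFP-positive and -1.29 in YFP-negative cells. Nes was 2.11-fold lower in untreated YFP-positive cells than in untreated YFP-negative cells (2.002 to 2.22) and 1.80-fold lower between the treated libraries (1.74 to 1.87). In the matched pairs it was lower, by 1.90-fold between the gene-rich libraries and by a log2 ratio of -0.98 between the gene-poor ones. When FPKM were rescaled by the upper quartile of each library, the Nes difference with VEGF-C changed sign, with a log2 ratio of 0.44 in place of -0.84. Oligodendrocyte and microglia markers were also higher in the YFP-negative libraries, and so were most vessel genes measured without VEGF-C: 5 of 6 endothelial genes (median log2 -1.54) and 5 of 6 mural genes were lower in YFP-positive cells. With VEGF-C, 3 of 7 endothelial genes were higher and 3 lower, and 1 of 2 mural genes was higher and 1 lower. Endothelial Cdh5 was listed at 0 in untreated YFP-positive cells and had 3.17 FPKM in untreated YFP-negative cells. Between the treated libraries Cdh5 was reversed, at 1.17 FPKM in YFP-positive cells and listed at 0 in YFP-negative cells. The part of these cells in the Nes level was not tested.

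Synm, on chromosome 7 from 67730160 to 67759742 (minus strand), encodes a large filament protein that bridges filaments to other structures. It was at 1.69 FPKM in treated YFP-positive cells (1.58 to 1.80) and 0.390 FPKM in the untreated ones (0.201 to 0.681, from 12 fragments). In YFP-negative cells it was at 0.174 FPKM after treatment (0.0798 to 0.331, from 9 fragments) and 7.65 FPKM in the untreated ones (7.21 to 8.11). The untreated YFP-negative library was the high one, the populations overlapped, and both gene-poor libraries were the low ones. Synm was 19.6-fold lower in untreated YFP-positive cells than in untreated YFP-negative cells (11.2 to 38.1) and 9.68-fold higher between the treated libraries (5.08 to 21.2). Between the gene-rich libraries it was 4.53-fold lower in YFP-positive cells (4.14 to 4.95), and between the gene-poor ones, both under 1 FPKM, it was 2.23-fold higher with an interval that includes equality (0.864 to 6.01). The normalized count per FPKM, which reflects the transcript length assigned to the gene, was 66.6 in the untreated YFP-positive library and 104 to 107 in the others, so the 2 deposited tables give different ratios for Synm there.

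**Figure D2:**
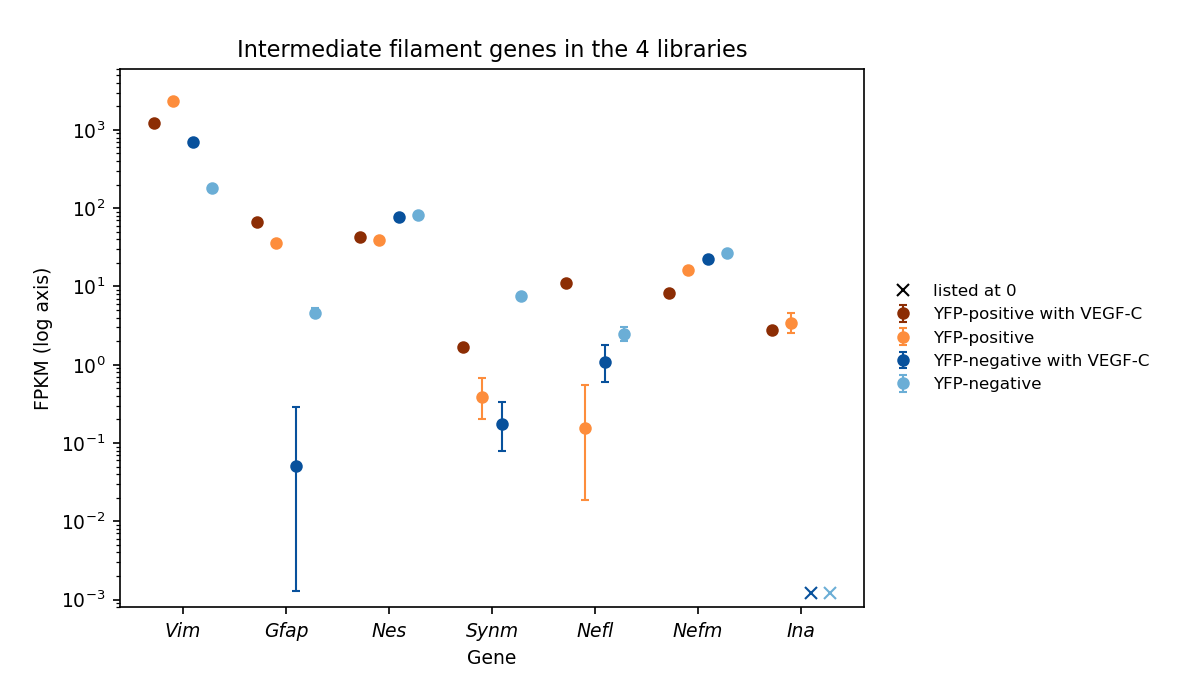
FPKM of the 7 genes (log axis) in each library; points are single libraries, bars are 95% exact Poisson intervals from implied fragments and crosses mark values listed at 0. Vim and Gfap are higher in both YFP-positive libraries, Nes and Nefm are higher in both YFP-negative ones, and Nefl and Synm overlap.

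The neurofilament genes did not share a pattern. Nefm, on chromosome 14 from 68082590 to 68124846 (minus strand), was at 8.21 FPKM in treated YFP-positive cells (7.85 to 8.59) and 16.1 FPKM in the untreated ones (14.4 to 17.9), against 22.6 FPKM (20.7 to 24.6) and 26.7 FPKM (25.5 to 28.0) in treated and untreated YFP-negative cells. Both YFP-positive libraries were below both YFP-negative ones. Nefm was 1.66-fold lower in untreated YFP-positive cells than in untreated YFP-negative cells (1.48 to 1.87) and 2.75-fold lower between the treated libraries (2.49 to 3.03). Between the gene-rich libraries it was 3.25-fold lower (3.04 to 3.47), and between the gene-poor ones 1.40-fold lower (1.22 to 1.61). Relative to the median of all genes, the log2 ratio between the untreated libraries was -0.04 in place of -0.70, and under upper-quartile scaling that between the treated ones was -0.15 in place of -1.36, no longer past 2-fold.

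Nefl, its neighbour on chromosome 14 from 68083863 to 68089095 (plus strand), was at 11.2 FPKM in treated YFP-positive cells (10.7 to 11.8) and 0.154 FPKM in the untreated ones, from 2 fragments (0.0186 to 0.555). In YFP-negative cells it was at 1.07 FPKM after treatment (0.600 to 1.77) and 2.48 FPKM in the untreated ones (2.01 to 3.03). The treated YFP-positive library was the high one and the untreated YFP-positive library the low one, so the populations overlapped. Nefl was 16.1-fold lower in untreated YFP-positive cells than in untreated YFP-negative cells (4.35 to 135) and 10.5-fold higher between the treated libraries (6.32 to 18.7). The matched pairs also disagreed. Between the gene-rich libraries it was 4.52-fold higher in YFP-positive cells (3.68 to 5.62). Between the gene-poor ones it was 6.98-fold lower, from 2 fragments against 15 (1.62 to 62.9). Exons of Nefl and Nefm overlap on opposite strands in GENCODE M21, and the libraries were unstranded, so reads of the overlap cannot be told apart.

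Ina, on chromosome 19 from 47014698 to 47025327 (plus strand), was at 2.77 FPKM in treated YFP-positive cells (2.52 to 3.04) and 3.44 FPKM in the untreated ones (2.56 to 4.52). Neither YFP-negative library showed it above 0; there, 3 fragments would have given 0.189 FPKM after treatment and 0.0677 FPKM in the untreated ones. An FPKM of 0 need not mean that a gene is absent. Hnrnpa1, a gene every cell uses, was listed at 0 in treated YFP-negative cells although the remaining libraries had 299 to 692 FPKM. Whether such a value is a failed estimate was not tested. No fold is therefore given for Ina. Its exons overlap those of Nt5c2 on the other strand, which had 9.84 and 21.9 FPKM in treated and untreated YFP-positive cells, against 3.76 and 12.3 FPKM in treated and untreated YFP-negative cells. Exons of Synm overlap those of Ttc23 in the same way, which had 10.3 and 1.44 FPKM in treated and untreated YFP-positive cells and 0 in each YFP-negative library.

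The make-up of the neurofilament transcripts differed between libraries. Nefm exceeded Nefl 105-fold in untreated YFP-positive cells, where Nefl had 2 fragments, and 21.0-fold and 10.8-fold in treated and untreated YFP-negative cells. The treated YFP-positive library was the exception, with a Nefm to Nefl ratio of 0.732. It was also the only one with Nefh, the heavy neurofilament gene, above 0, at 2.57 FPKM. As for Ina, the values of 0 elsewhere need not mean absence. Summed over Nefl, Nefm, Nefh and Ina, the level was 24.8 and 19.7 FPKM in treated and untreated YFP-positive cells. It was 23.6 and 29.2 FPKM in treated and untreated YFP-negative cells. The sum spread over fewer FPKM than Nefl or Nefm alone, but over more than Ina or Nefh.

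Of 22 cytoplasmic filament genes looked at, the 7 members held 97.3% to 99.8% of the summed FPKM in each library. Vim made up 89.5% and 95.9% of it in treated and untreated YFP-positive cells, against 86.9% and 58.1% in treated and untreated YFP-negative cells. Nes made up 3.19% and 1.60% in YFP-positive cells, against 9.81% and 26.0% in YFP-negative cells. Gfap made up 4.88% and 1.46% in YFP-positive cells, and 0.00648% and 1.47% in YFP-negative cells. The Gfap share was therefore alike in both untreated libraries although its level differed 7.67-fold. Of the other 15 filament genes, Krt10, a keratin of skin, was the most abundant, at 6.10 and 4.03 FPKM in treated and untreated YFP-positive cells and 2.04 and 8.42 FPKM in YFP-negative cells. Sync, a partner of desmin, stayed at or below 0.787 FPKM, and 10 to 14 of the 15 were listed at 0 in any 1 library.

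**Figure D3:**
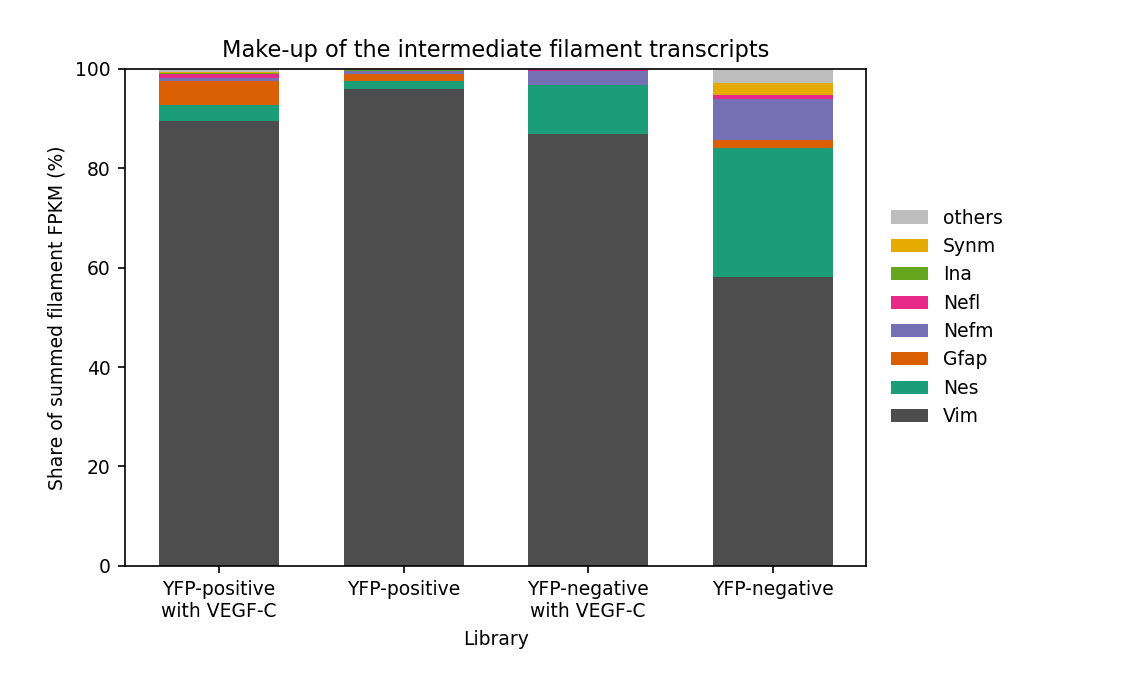
Share of the summed FPKM of 22 cytoplasmic intermediate filament genes (percent, bars start at 0) taken by each member and by the other genes in the 4 libraries. Vim fills 86.9% to 95.9% of 3 bars, and in untreated YFP-negative cells it holds 58.1% beside 26.0% for Nes and 8.44% for Nefm.

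Set against all genes, the members did not move as 1 group. A gene was counted when it reached 1 FPKM in at least 1 of the libraries compared, and called when it was past 2-fold on the log2((FPKM + 1) / (FPKM + 1)) scale, which understates changes of low genes. Between the untreated populations, YFP-positive over YFP-negative, 3 of 7 members were higher (Vim, Gfap, Ina; 30.1% of 11265 genes were) and 3 were lower (Nes, Nefl, Synm; 46.7%). With VEGF-C, 4 were higher (Gfap, Nefl, Ina, Synm; 47.0% of 11229 genes) and 1 was lower (Nefm; 27.6%). The median log2 ratio of the members was -0.70 without and 1.19 with VEGF-C, and that of all genes was -0.66 and 0.69. Vim and Gfap exceeded 95.1% and 90.0% of all genes without VEGF-C, and 51.1% and 99.4% with it. Across both pairs, 3 of 7 members (Vim, Gfap, Ina) had both YFP-positive libraries above both YFP-negative ones, as did 18.7% of 12769 genes, and 2 (Nes, Nefm) had both below, as did 17.1%. In all of these counts Ina enters through its values of 0 in both YFP-negative libraries, which need not mean absence.

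VEGF-C is the ligand of the receptor behind the reporter. Between treated and untreated YFP-positive cells, 1 of 7 members was higher with VEGF-C (Nefl; 45.5% of 11040 genes were) and 0 were lower (26.3%). Nefl was 73.0-fold higher with VEGF-C, with an interval from 20.2 to 603 and 2 fragments in the untreated library. Gfap was 1.86-fold higher with VEGF-C (1.72 to 2.02), Nes 1.11-fold higher (1.05 to 1.17) and Synm 4.33-fold higher (2.47 to 8.42), which on the scale with 1 added is a log2 ratio of 0.95. Vim was 1.92-fold lower (1.90 to 1.95), Nefm 1.96-fold lower (1.74 to 2.19), and Ina 1.24-fold lower with an interval that includes equality (0.909 to 1.66). The untreated library is the gene-poor one here, and the median of all genes was 0.59 on the log2 scale; relative to it, the Nes ratio of 0.14 becomes -0.45. Under upper-quartile scaling the ratios of Vim, Nefm and Ina changed sign, to 0.31, 0.26 and 0.72.

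In YFP-negative cells, 1 of 6 measured members was higher with VEGF-C (Vim; 25.3% of 10968 genes were) and 2 were lower (Gfap, Synm; 45.3%). Vim was 3.76-fold higher with VEGF-C (3.64 to 3.88). Synm was 43.9-fold lower (23.0 to 96.1) and Gfap 90.1-fold lower, from 1 fragment against 250 (16.0 to 3574). Nefl was 2.31-fold lower (1.33 to 4.29), Nefm 1.18-fold lower (1.07 to 1.31) and Nes 1.05-fold lower (1.02 to 1.10). The median of all genes was -0.54 on the log2 scale, and relative to it the ratios of Nes and Nefm changed sign, to 0.46 and 0.31. Here the treated library is the gene-poor one and its microglia markers had a higher sum, 1750 against 443 FPKM, but did not move together: 5 of 11 measured were higher and 3 lower. Fcer1g and Tyrobp, both adaptors of immune receptors, were at 929.6 against 123 FPKM and 451 against 98.0 FPKM, and the complement genes C1qa, C1qb and C1qc were at 0, 0.437 and 0 FPKM in treated against 14.5, 61.2 and 19.8 FPKM in untreated YFP-negative cells. Their part in the Vim difference was not tested.

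**Figure D4:**
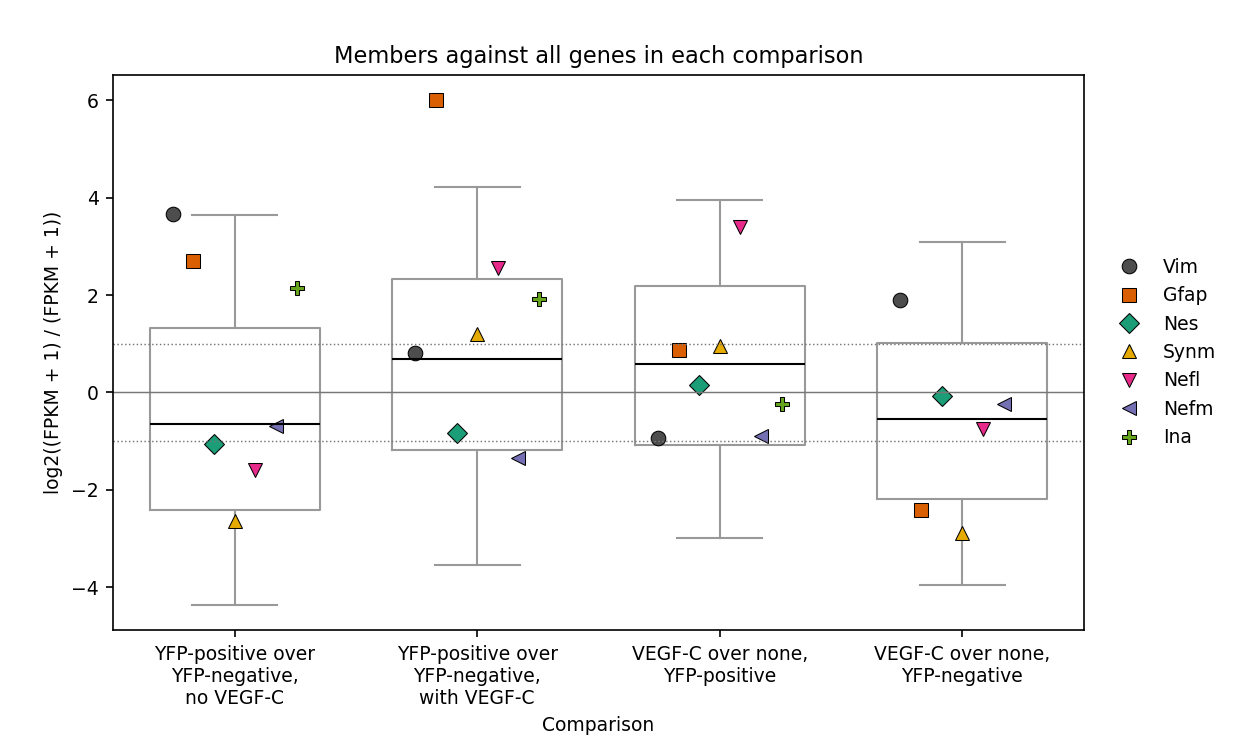
log2 ratio of FPKM plus 1 of each measured member (symbols) over the distribution of all genes counted (box, quartiles and median; whiskers, 5th to 95th percentile) in 4 comparisons of single libraries; dotted lines mark 2-fold. Vim and Gfap lie above the upper quartile without VEGF-C, Gfap lies above the whisker with it, and the median of all genes is not at 0.

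Genes that act on or beside filaments are given by list, and each median can be read against those of all genes. These were -0.66 and 0.69 between the populations without and with VEGF-C, and 0.59 and -0.54 for treated over untreated YFP-positive and YFP-negative cells. Counts in this and later lists can be read against the shares of all genes higher and lower. Between the populations these were 30.1% and 46.7% without VEGF-C, and 47.0% and 27.6% with it. For treated over untreated cells they were 45.5% and 26.3% in YFP-positive cells, and 25.3% and 45.3% in YFP-negative cells. A list of 14 regulators holds transcription factors that act on Gfap, Nes or Vim or in the lineages that express them, and the signalling genes Jak1 (a kinase) and Il6st (a cytokine receptor subunit). Of these, 10 of 12 measured, Jak1 among them, were higher in YFP-positive cells without VEGF-C and 0 lower (median log2 2.30), and 6 of 13, again with Jak1, were higher and 1 (Il6st) lower with it (median 0.81). Sox9, a factor of glial fate, was at 191 and 445 FPKM in treated and untreated YFP-positive cells, against 1.12 and 5.58 FPKM in YFP-negative cells. Nfia, a factor of astrocyte formation, was at 109 and 214 FPKM, against 45.9 and 25.1 FPKM. Nfix was nearly level, at 74.4 and 81.5 FPKM against 78.8 and 54.0 FPKM. Between treated and untreated YFP-positive cells, 0 of 13 were higher and 7 lower (median -1.22), and in YFP-negative cells 4 of 11 were higher and 3 lower (median 0.85).

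Transcripts of proteins that link filaments to junctions and to other filaments were mostly higher in YFP-negative cells when VEGF-C was present. Of 9 measured linkers, 0 were higher and 6 lower in YFP-positive cells with VEGF-C (median -2.21), and 1 of 8 was higher and 2 lower without it (median -0.25). Plec, the linker plectin, was at 9.76 and 11.3 FPKM in treated and untreated YFP-positive cells, against 48.8 and 8.24 FPKM in YFP-negative cells. Pkp4 was at 7.13 and 31.8 FPKM against 97.7 and 43.0 FPKM, and Jup, the junction protein plakoglobin, at 1.92 and 0.117 FPKM against 45.8 and 22.7 FPKM. For treated over untreated cells, 3 linkers were higher and 3 lower of 9 in YFP-positive cells (median -0.20), and 4 of 8 were higher and 0 lower in YFP-negative cells (median 1.07).

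Among genes of filament chaperones and turnover, 3 of 9 were higher and 2 lower between the untreated populations (median 0.44), and 3 of 8 were higher and 4 lower between the treated ones (median -1.003). Cryab, the small heat shock protein alpha-B crystallin that binds GFAP and vimentin filaments, was at 417 and 541 FPKM in treated and untreated YFP-positive cells, against 3179 and 1269 FPKM in YFP-negative cells. Bag3, a co-chaperone, was at 118 and 147 FPKM against 188 and 109 FPKM. Capn2, a calpain protease, was at 47.2 and 84.1 FPKM against 12.2 and 79.7 FPKM. For treated over untreated cells, 2 of 9 were higher and 4 lower in YFP-positive cells (median -0.82), and 4 of 10 were higher and 4 lower in YFP-negative cells (median 0.63). The nuclear lamins and their receptor, the filament family of the nucleus, were higher in 2 of 3 measured and lower in 0 in YFP-positive cells without VEGF-C (median 1.95), and higher in 0 and lower in 1 of 4 with it (median 0.55). Lmna was at 201 and 554 FPKM in treated and untreated YFP-positive cells, against 136 and 143 FPKM in YFP-negative cells. Lbr, the lamin B receptor, was at 16.3 and 38.6 FPKM against 10.8 and 28.4 FPKM, and Lmnb2 at 3.66 FPKM and 0 against 36.0 and 0.0591 FPKM. For treated over untreated cells, genes of this list were higher in 1 and lower in 3 of 4 in YFP-positive cells (median -1.33) and higher in 1 and lower in 1 of 4 in YFP-negative cells (median 0.14).

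For each member, the genes with the most similar pattern over the 4 libraries were found among genes averaging at least 20 FPKM and above 0 in every library, by the Euclidean distance of centred log2(FPKM + 1) values. With 4 libraries many genes can come close, so these are descriptions. The 1 FPKM added flattens the changes of low members, Nefl, Synm and Ina, more than those of the genes compared with them. Synm ran from 0.174 to 7.65 FPKM, and its nearest gene Atp6v0d1 from 17.9 to 87.6 FPKM. Ina was listed at 0 in YFP-negative cells, where its nearest gene Nr1d1 had 33.9 FPKM after treatment and 37.6 FPKM without it. Gfap was nearest to Cav1 (distance 0.51), the glutamate transporter gene Slc1a2 (0.58) and Clu (0.68). Slc1a2, an astrocyte gene, was at 48.1 and 41.8 FPKM in treated and untreated YFP-positive cells, against 0.0486 and 3.18 FPKM in YFP-negative cells. Vim was nearest to Stat3 (0.38), a transcription factor of cytokine signalling, followed by Nfib (0.40) and the growth cone gene Gap43 (0.43). Stat3 had 32.9 and 84.7 FPKM in treated and untreated YFP-positive cells, against 22.7 and 6.32 FPKM in YFP-negative cells. Nes was nearest to Creb5 (0.17), Ddx42 (0.22) and Atf5 (0.24), and Nefm to Samd8 (0.10), Snapin (0.15) and Pip4k2c (0.22). The genes nearest to Ina were Nr1d1 (0.17), Gm11974 (0.27) and Myc (0.27). Nefl was nearest to Npdc1 (0.40), Mcm7 (0.71) and Asna1 (0.72), and Synm to Atp6v0d1 (0.65), Tmx2 (0.70) and Gmfb (0.80).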

How the data were processed

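Libraries made with the SMARTer Ultra Low kit were sequenced as paired reads of 75 bp, per the labels' protocols and the series' design text. Reads were mapped to mm10 with TopHat 2.0.9 (SAMtools 0.1.18 and Bowtie2 2.1.0 also being named), as unstranded reads and without junctions outside the annotation; levels came from Cuffdiff of Cufflinks 2.1.1, per the submitters' processing notes and the series' design text. The sources used here give no annotation version. The authors deposited FPKM and a normalized count table, handled here as a signal since the values are fractional. Up to 2000 steps, 99.0% to 99.6% of normalized counts per library were whole numbers of steps with a tolerance of 0.05. Of 23361 rows, 27 had symbols turned into dates (0.251% to 0.317% of normalized counts) and were left out.

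Python 3.11.15, pandas 2.3.3, NumPy 2.4.6, SciPy 1.17.1 and Matplotlib 3.10.9 were used. With 1 library per group no test was run, and ratios used FPKM plus 1. The calculation was tested on simulated data. Positions and overlaps came from GENCODE M21 (GRCm38), where 93.0% of symbols were found, and sequences from RefSeq. The members and gene lists were chosen with earlier results of these data known. Besides the members, the text names the 3 genes of each list of related genes with the highest mean FPKM, the 3 nearest genes in pattern, and genes picked after their values were seen (Nefh among the filaments, single cell type markers, Jak1 and Il6st, overlapping genes). The pairs of libraries with similar numbers of genes were added after the data were seen. Alternatives changed the pseudocount, the scaling, the table, the filter and the fold.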

Additional observations from a re-analysis of the deposited data

Results flagged for a closer look

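For 5 members the libraries with and without VEGF-C differed in opposite directions in the populations, each by more than counting error. The share of all genes that did so was not computed, so this count has no background. The medians of all genes also lay in opposite directions, at 0.59 in YFP-positive and -0.54 in YFP-negative cells. The difference of the responses, YFP-positive minus YFP-negative on the log2 scale, was 3.30 for Gfap, 0.22 for Nes, -2.85 for Vim, 4.15 for Nefl and 3.83 for Synm. These differences were not tested, since each response is 1 library against 1 other, and in each response the gene-poor library stands on the other side. Of 12769 genes at 1 FPKM or more in at least 1 library, 20.4% were at least 2-fold opposite in the responses on the scale with 1 FPKM added, and 0 members were. That 0 depends on the scale: Synm is past 2-fold in opposite directions with normalized counts (log2 1.70 and -3.87 in YFP-positive and YFP-negative cells), Nefl (5.48 and -1.14) and Synm (1.87 and -4.82) are with a pseudocount of 0.1, and Gfap, Nes, Nefl and Synm are under upper-quartile scaling. The Nes ratios, 0.14 in YFP-positive and -0.08 in YFP-negative cells, change sign relative to the median of all genes, and the Vim ratio in YFP-positive cells changes sign under upper-quartile scaling.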

How the results depend on the processing

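Of 27 member ratios above or below 0, 20 kept their sign under both pseudocounts, re-centring, upper-quartile scaling and normalized counts, and 7 changed it; none of those 7 was past 2-fold. They are Nes, with VEGF-C between populations and in both VEGF-C responses, Vim, Nefm and Ina for VEGF-C in YFP-positive cells, and Nefm for VEGF-C in YFP-negative cells. Of 140 recomputed ratios of single members, 85 shifted by no more than the counting error of the ratio itself and 55 by more. That limit is wide for ratios from few fragments. Nefl between the untreated populations, with 2 fragments in YFP-positive cells, is among the 85 although it went from -1.59 to -3.35 with a pseudocount of 0.1. Where Ina was listed at 0 no counting error was set, so any shift counted as more. These numbers therefore do not measure stability. Of 64 recomputed counts of members, 43 stayed within 1.5 times. Between the untreated populations, 1 member in place of 3 was lower with a pseudocount of 5, with re-centring, with a mean of at least 20 FPKM and at 4-fold. With VEGF-C, 2 in place of 4 were higher with a pseudocount of 5 and at 4-fold, and 1 with a mean of at least 20 FPKM; in place of 1, 2 were lower with re-centring and 0 with upper-quartile scaling, the mean filter or 4-fold. For VEGF-C in YFP-positive cells, 2 in place of 1 were higher with a pseudocount of 0.1 or normalized counts, 4 with upper-quartile scaling and 0 with the mean filter, and 2 in place of 0 were lower with re-centring. For VEGF-C in YFP-negative cells, 0 in place of 1 were higher with upper-quartile scaling or 4-fold, and in place of 2, 1 was lower with a pseudocount of 5 or the mean filter and 5 with upper-quartile scaling. The mean filter keeps Vim, Gfap and Nes, so its counts are smaller by construction; other causes were not tested. Among all genes, the share of higher among called ones was 39.2% without and 63.0% with VEGF-C between populations, 51.8% and 48.3% after re-centring, and 21.1% and 82.3% with upper-quartile scaling. For VEGF-C it was 63.4% in YFP-positive and 35.9% in YFP-negative cells, 48.3% and 50.0% after re-centring, and 85.2% and 15.1% with upper-quartile scaling. No paired analysis was possible because each group has 1 library. Values resting on 1 to 15 fragments, those of Gfap, Nefl and Synm in the gene-poor libraries named above, have wide intervals. Why these values are low was not tested.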

Other observations

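Genes of the neuronal microtubule and axon cytoskeleton, which neurofilaments accompany, were all at 1 FPKM or more in at least 1 library of every comparison. In YFP-positive against YFP-negative cells, 7 of 15 were higher and 3 lower without VEGF-C (median log2 0.89), and 5 were higher and 4 lower with it (median 0.53). Tuba1a, a neuronal alpha-tubulin, had 1232 and 1248 FPKM in treated and untreated YFP-positive cells, against 890 and 516 FPKM in YFP-negative cells. Stmn1 was at 355 and 178 FPKM against 382 and 307 FPKM, and Stmn4, another microtubule-destabilising stathmin, at 55.9 and 13.5 FPKM against 326 and 234 FPKM. For VEGF-C, 3 were higher and 3 lower in YFP-positive cells (median -0.02), and 2 higher and 5 lower in YFP-negative cells (median 0.32). Of 8 motor genes, 3 were higher and 2 lower between the untreated populations (median 0.55) and 1 higher and 3 lower between the treated ones (median -0.59), and for VEGF-C 1 was higher and 4 lower in YFP-positive cells (median -0.98) and 3 higher and 1 lower in YFP-negative cells (median 0.77). The dynein light chain Dynll1 had 288 and 482 FPKM in treated and untreated YFP-positive cells, against 673 and 458 FPKM in YFP-negative cells. Kif5b, a kinesin heavy chain, was at 78.1 and 80.4 FPKM against 45.9 and 73.8 FPKM, and Kif3a at 14.99 and 36.3 FPKM against 68.1 and 10.5 FPKM.

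Genes reported in reactive astrocytes, in which Gfap and Vim are high, were higher in 8 of 13 measured and lower in 3 between the untreated populations (median 1.23), and higher in 10 of 15 and lower in 3 between the treated ones (median 2.83). For treated over untreated cells, 5 of 15 were higher and 9 lower in YFP-positive cells (median -1.18), and 3 of 12 were higher and 7 lower in YFP-negative cells (median -1.40). S100a10 had 556 and 1069 FPKM in treated and untreated YFP-positive cells, against 671 and 241 FPKM in YFP-negative cells, and Cd44, a receptor of hyaluronan, had 126 and 255 FPKM against 208 and 74.9 FPKM. Both follow the order of Vim without VEGF-C but not with it. H2-D1, a class I antigen-presenting gene, was at 34.7 and 7.54 FPKM against 274 and 168 FPKM, and Lcn2 and C3 stayed below 1 FPKM in every library. Filament kinases and phosphatases were higher in 5 of 13 and lower in 4 without VEGF-C (median -0.14) and higher in 7 of 15 and lower in 4 with it (median 0.84) between the populations. For VEGF-C they were higher in 7 of 15 and lower in 4 in YFP-positive cells (median 0.05) and higher in 3 of 13 and lower in 2 in YFP-negative cells (median 0.56). Ppp1ca, a catalytic subunit of protein phosphatase 1, had 204 and 30.0 FPKM in treated and untreated YFP-positive cells, against 70.0 and 114 FPKM in YFP-negative cells, Ppp2ca had 97.0 and 99.1 FPKM against 93.8 and 58.6 FPKM, and Mapk3 had 31.2 and 65.004 FPKM against 140 and 71.6 FPKM.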
